A study of Schizosaccharomyces pombe with 6 samples.

Results

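The nuclear and mitochondrial genes of the respiratory chain and the ATP synthase were followed in fission yeast (Schizosaccharomyces pombe) treated with 2 inhibitors of TOR, the Target of Rapamycin kinase. Genes were taken from the gene table by their descriptions: protein-coding genes whose description named cytochrome c, ubiquinol, cytochrome bc1, succinate dehydrogenase, NADH dehydrogenase, an F1 or F0 ATPase or an ATP synthase, without ribosomal or vacuolar genes. The descriptions alone decided, with no measured value, which gave 67 of the 7268 genes. They comprised 18 genes of the ATP synthase, 13 of cytochrome c oxidase, 8 of the cytochrome bc1 complex, 3 of complex II (succinate dehydrogenase), 2 NADH dehydrogenases, the cytochrome c gene cyc1, and 22 assembly and maturation factors. Of the 67 genes, 61 are encoded in the nucleus and 6 in mitochondrial DNA.

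The groups were cells treated with 100 nM rapalink-1 for 5 h, cells treated with 100 nM rapamycin for 5 h, and untreated cells, with 2 RNA-seq libraries each. Rapalink-1 is a compound in which rapamycin is joined to a second inhibitor that acts on the TOR kinase site. All cells were of the wild-type strain 972-, which is of the h- mating type, and were grown in rich YES medium with glucose. The flasks were divided from a pair of mother cultures, the labels do not say which library came from which mother culture, and no vehicle is named for the untreated flasks, so p-values measure the spread between flasks only.

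The respiratory chain passes electrons from NADH and succinate through ubiquinone, the bc1 complex and cytochrome c to cytochrome c oxidase, and the ATP synthase uses the resulting proton gradient to make ATP. Fission yeast has no complex I, and NADH is oxidised by small membrane-bound NADH dehydrogenases instead. Catalytic subunits of the oxidase and membrane subunits of the ATP synthase are encoded in mitochondrial DNA. Most of the remaining subunits are encoded in the nucleus, and cells growing on glucose ferment most of it. In several fungi, CCAAT boxes upstream of respiratory genes are bound by a CCAAT-binding complex.

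Levels are given in FPKM, fragments per kilobase of gene model scaled to library size, as the authors computed them. Libraries held between 16527483 and 26321118 reads assigned to genes. Differences were computed with limma on log2(FPKM + 1), a scale that understates changes of low genes, for the 4847 genes with a mean of at least 1 FPKM. A gene is called higher or lower where its Benjamini-Hochberg adjusted p over these genes was at most 0.05. Of the 67 genes, 52 passed the filter on level, 51 of them nuclear. The marker genes of M cells, the type that h- cells belong to, summed to 399 and 435 FPKM with rapalink-1, 115 and 124 FPKM with rapamycin, and 94.5 and 98.5 FPKM in untreated cells, with 1 of the 5 genes listed at 0 in every library. The 3 genes of the opposite P type summed to between 12.8 and 14.8 FPKM in all libraries. Reads on rRNA genes took 0.117% and 0.124% of the rapalink-1 libraries, 0.203% and 0.243% of the rapamycin libraries and 0.139% and 0.189% of the untreated libraries, and the part of this difference in the results was not tested. RNA came from whole cultures, so a change in the share of a transcript and a change in the total RNA per cell cannot be told apart.

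With rapalink-1, transcripts of nuclear subunits of the oxidase, the ATP synthase and the bc1 complex rose against untreated cells in small steps. Of the 52 tested genes, 29 were higher and 2 were lower than in the untreated control. Among all tested genes, 24.3% were called higher and 23.1% lower. The median log2 fold change was 0.15 over the 52 genes and -0.01 over all tested genes. Quantile normalization lowered both, to 0.07 and -0.07. Reads of the 67 genes together made up 1.51% and 1.47% of the rapalink-1 libraries, 1.32% and 1.36% of the rapamycin libraries, and 1.32% and 1.34% of the untreated libraries, so the rapalink-1 libraries lay above the other 4.

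Leaving out assembly factors and the genes of mitochondrial DNA, limma called 24 of 34 genes higher and 0 lower under rapalink-1 than in untreated cells. The lower count was also 0 by edgeR and DESeq2. At an unadjusted p under 0.05 limma gave 26 of the 34 genes, against 2621 of all 4847 tested genes. By complex, 7 of 9 tested oxidase genes, 12 of 15 ATP synthase genes, 4 of 5 bc1 genes and 1 of 2 NADH dehydrogenase genes were called higher, against 0 of 3 genes of complex II by limma, edgeR or DESeq2, with 1 of the 3 at an unadjusted p under 0.05 by limma. The median log2 fold changes were 0.30 for the oxidase, 0.20 for the ATP synthase, 0.14 for the bc1 complex and 0.08 for complex II. In 27 of the 34 genes both rapalink-1 libraries lay above the other 4 libraries, an order shown by 26.7% of all tested genes. Rapalink-1 replicate 1 was above replicate 2 in 25 of the 34 genes, rapamycin replicate 1 in 17 and untreated replicate 1 in 10. These replicate orders were not counted over all tested genes. Without replicate 1 of rapalink-1 the count of higher genes among the 52 was 21, and it was also 21 without replicate 1 of the untreated cells.

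**Figure D1:**
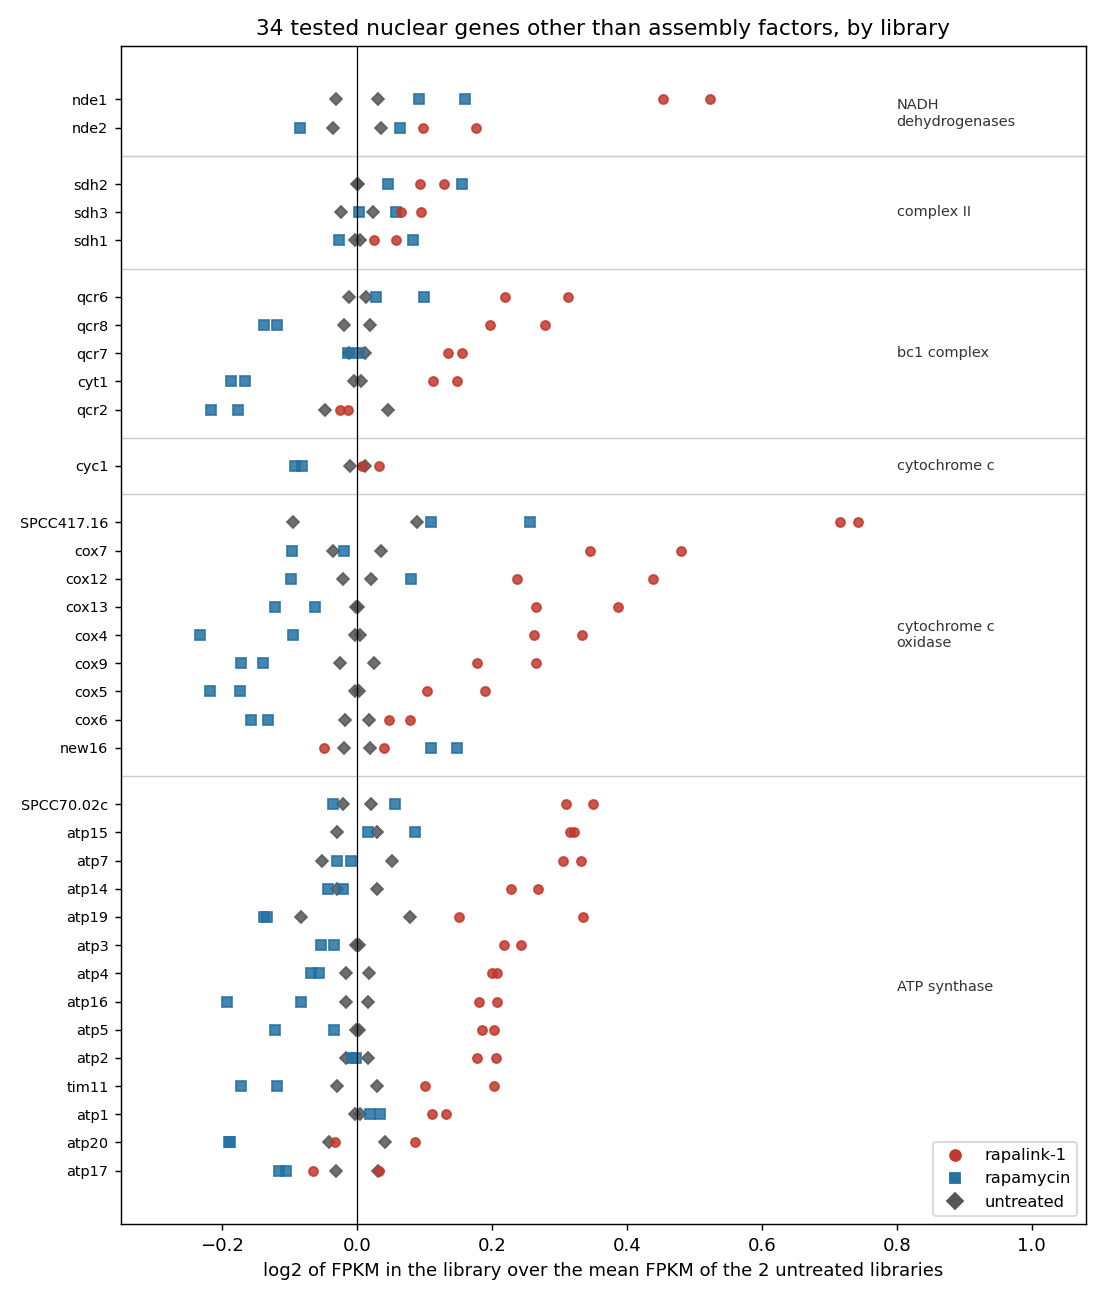
Log2 ratio of the FPKM in each library (x axis) to the mean of the 2 untreated libraries, for the 34 tested nuclear genes other than assembly factors (rows, by complex); circles are rapalink-1, squares rapamycin and diamonds untreated libraries. In 27 of the 34 rows both circles lie to the right of all other points, an order shown by 26.7% of all tested genes. In 17 rows both squares lie to the left of both diamonds, against 32.8% of all tested genes.

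The largest rise belonged to SPCC417.16, a predicted subunit of cytochrome c oxidase on chromosome III (positions 1702785 to 1703501 on the minus strand in the authors' gene table). It had 358.6 and 365.3 FPKM with rapalink-1, 235.3 and 260.6 FPKM with rapamycin, and 204.3 and 232.1 FPKM in untreated cells. All 3 conditions were separate, with rapalink-1 far above the other pair. The log2 fold change of rapalink-1 over untreated cells was 0.73 ± 0.07 (SE), and the adjusted p from limma was 5.13e-05. Other gene models on the same strand cover 20.9% of this gene, so its reads can be shared with them.

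The oxidase genes next in size were cox7 and cox12, small nuclear subunits that surround the catalytic core. The cox7 level was 619.3 and 564.3 FPKM with rapalink-1, 438.2 and 415.4 FPKM with rapamycin, and 455.1 and 433.0 FPKM in untreated cells. The rapalink-1 libraries stood above the rest, and the other conditions overlapped. The log2 fold change of rapalink-1 over untreated cells was 0.41 ± 0.05 for cox7 (adjusted p from limma 0.000435). For cox12, which encodes subunit VIb, the level was 470.1 and 408.8 FPKM with rapalink-1, 366.4 and 324.0 FPKM with rapamycin, and 351.8 and 341.9 FPKM in untreated cells. The replicates of cox12 were spread more widely than those of cox7, and its log2 fold change was 0.34 ± 0.07 (adjusted p from limma 0.00601). Without the filter on level cox12 was not called. The calls of SPCC417.16, cox7 and cox12 held without any 1 library. The cox5 call was lost without replicate 1 of rapalink-1 or either replicate of the untreated cells (log2 fold changes 0.11 to 0.15). Of the 9 oxidase genes, new16, which encodes a protein related to subunit VIb, and cox6, which encodes subunit VI, were not called, with log2 fold changes of -0.00 and 0.06.

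**Figure D2:**
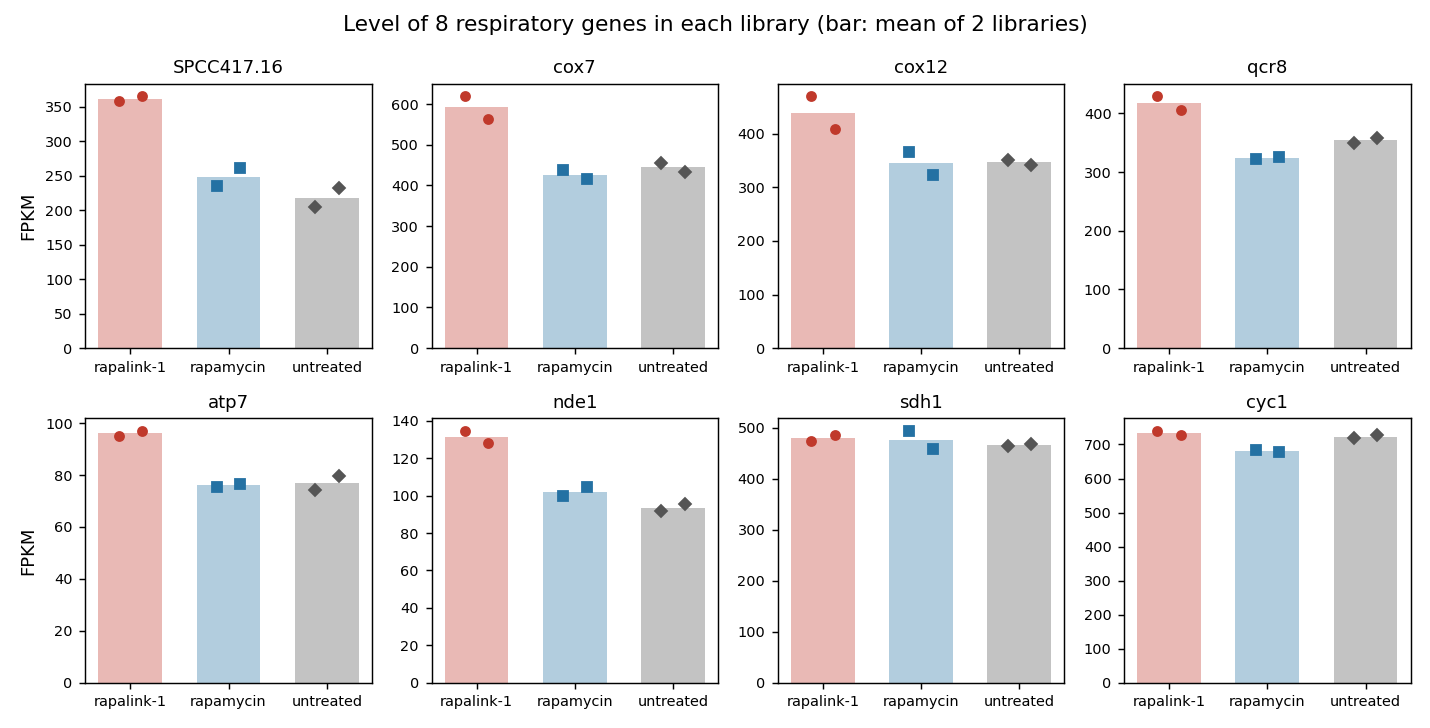
FPKM (y axes, from 0) of 8 genes in each library; points are libraries, bars the mean of 2, and conditions run from rapalink-1 over rapamycin to untreated. The rapalink-1 points of SPCC417.16, cox7, cox12, qcr8, atp7 and nde1 lie above all other points, whereas the rapalink-1 means of sdh1 and cyc1 are 1.03 and 1.01 times the untreated means.

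In the ATP synthase the leading genes were SPCC70.02c, a predicted inhibitor protein of the enzyme, atp15, the epsilon subunit, and atp7, subunit d of the stalk that holds the catalytic head in place. SPCC70.02c had 144.6 and 140.5 FPKM with rapalink-1, 117.8 and 110.6 FPKM with rapamycin, and 111.7 and 115.0 FPKM in untreated cells. For atp15 the values were 223.6 and 224.7 FPKM with rapalink-1, 190.7 and 181.8 FPKM with rapamycin, and 183.5 and 176.0 FPKM in untreated cells. For atp7 they were 95.2 and 97.0 FPKM with rapalink-1, 75.4 and 76.5 FPKM with rapamycin, and 74.3 and 79.8 FPKM in untreated cells. In each of the 3 genes rapalink-1 was separate from both other conditions, which overlapped each other. Their log2 fold changes over untreated cells were 0.33 ± 0.04 (SPCC70.02c), 0.32 ± 0.04 (atp15) and 0.32 ± 0.05 (atp7), with adjusted p from limma of at most 0.000671. These calls held without any 1 library. The atp19 call was lost without replicate 1 of rapalink-1 or replicate 2 of the untreated cells (log2 fold changes 0.15 and 0.16). The catalytic beta subunit gene atp2, which had the highest level of all 67 genes, had 1125 and 1103 FPKM with rapalink-1, 970.1 and 974.0 FPKM with rapamycin, and 964.2 and 985.7 FPKM in untreated cells. Its rapalink-1 libraries lay above the other 4, with a log2 fold change of 0.19 ± 0.04 over untreated cells (adjusted p from limma 0.00546). Of the tested nuclear ATP synthase genes only atp17 and atp20, which encode membrane subunits f and g, were not called in this comparison, with log2 fold changes of -0.02 and 0.03.

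In the bc1 complex, qcr6 (the hinge protein), qcr8 and qcr7 (small subunits) rose most with rapalink-1. The qcr6 level was 445.1 and 417.2 FPKM with rapalink-1, 365.4 and 383.8 FPKM with rapamycin, and 361.5 and 355.2 FPKM in untreated cells. The qcr8 level was 429.4 and 405.8 FPKM with rapalink-1, 321.8 and 326.0 FPKM with rapamycin, and 349.3 and 358.9 FPKM in untreated cells. The 3 conditions did not overlap in either gene, and rapamycin was above untreated cells in qcr6 and below them in qcr8. The log2 fold changes over untreated cells were 0.27 ± 0.05 for qcr6, 0.24 ± 0.04 for qcr8 and 0.14 ± 0.04 for qcr7, with adjusted p from limma of 0.00169, 0.00184 and 0.0098. The qcr7 call was lost without replicate 1 of the untreated cells (adjusted p 0.0713). The cytochrome c1 gene cyt1 was also called higher (log2 fold change 0.13 ± 0.04), while qcr2, which encodes a core protein, was not (-0.02 ± 0.04). The cyt1 call was lost without replicate 1 of rapalink-1 or either replicate of the untreated cells (log2 fold changes 0.11 to 0.13).

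The NADH dehydrogenases differed from each other. SPBC947.15c, named nde1 in the gene table, had 134.5 and 128.2 FPKM with rapalink-1, 99.7 and 104.6 FPKM with rapamycin, and 91.6 and 95.6 FPKM in untreated cells. The conditions were separate, and the log2 fold change of rapalink-1 over untreated cells was 0.48 ± 0.05 (adjusted p from limma 6.01e-05), which held without any 1 library. SPAC3A11.07, named nde2 in the gene table and nde1 in the RefSeq annotation, had 317.7 and 300.7 FPKM with rapalink-1, 265.0 and 293.7 FPKM with rapamycin, and 274.2 and 288.0 FPKM in untreated cells. Its rapalink-1 libraries were the highest, but the log2 fold change of 0.14 ± 0.06 missed the threshold (0.0737 after adjustment, limma). The difference between the responses of these NADH dehydrogenase genes was not tested.

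Complex II and cytochrome c were at high levels with little difference between conditions. The flavoprotein gene sdh1 had 474.2 and 485.1 FPKM with rapalink-1, 493.7 and 457.4 FPKM with rapamycin, and 464.8 and 467.3 FPKM in untreated cells. Rapalink-1 and rapamycin overlapped, and the log2 fold change of rapalink-1 over untreated cells was 0.04, with a 95% interval of -0.06 to 0.14. For sdh2, the iron-sulfur subunit, the interval was 0.01 to 0.21 (adjusted p from limma 0.0748), and for sdh3, the membrane anchor, it was -0.01 to 0.17 (adjusted p from limma 0.136). In all 3 genes of complex II both rapalink-1 libraries lay above both untreated libraries, an order shown by 1773 of all 4847 tested genes. The difference between complex II and the other complexes was not tested. The cyc1 level was 739.7 and 727.1 FPKM with rapalink-1, 683.6 and 678.8 FPKM with rapamycin, and 717.8 and 728.8 FPKM in untreated cells. Rapalink-1 and untreated libraries overlapped, with a log2 fold change of 0.02 and a 95% interval of -0.07 to 0.11.

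Of the 17 tested assembly and maturation factors, 5 (29.4%) rose and 2 (11.8%) fell under rapalink-1 relative to untreated cells, against 24.3% and 23.1% of all tested genes, with a median log2 fold change of -0.00. The largest increases were those of SPBC8D2.12c, a predicted activator of translation of oxidase subunit I (0.26 ± 0.06), cox17, a copper chaperone for the oxidase (0.24 ± 0.08), and coa2, an oxidase assembly factor (0.22 ± 0.05). Their adjusted p from limma were 0.0076, 0.0356 and 0.00771. Only the coa2 call held without any 1 library. It was lost with DESeq2, without the filter on level and after removal of the trend with gene length. That of cox17 was lost with DESeq2, without the filter and with quantile normalization. The SPBC8D2.12c call was lost without replicate 1 of the untreated cells (adjusted p 0.0584), and the cox17 call without replicate 1 of rapalink-1 (adjusted p 0.203) or replicate 2 of the untreated cells (adjusted p 0.155). The lower genes were rcf1 and rcf2, whose products in Saccharomyces cerevisiae join bc1 and oxidase complexes. The rcf1 level was 9.92 and 10.6 FPKM with rapalink-1, 10.8 and 10.2 FPKM with rapamycin, and 11.7 and 13.2 FPKM in untreated cells. Both treated conditions lay below the untreated libraries, and the log2 fold change of rapalink-1 over untreated cells was -0.26 ± 0.09 (adjusted p from limma 0.0382). The rcf2 level was 113.9 and 123.4 FPKM with rapalink-1, 132.7 and 122.9 FPKM with rapamycin, and 132.5 and 130.2 FPKM in untreated cells, a log2 fold change of -0.15 ± 0.05 for rapalink-1 over untreated cells (adjusted p from limma 0.0462). The rcf1 call was made in 1 and the rcf2 call in 3 of the 6 fits that left out 1 library, and 0 genes were lower without replicate 1 of rapalink-1 or without replicate 2 of the untreated cells, and 1 without replicate 2 of rapalink-1 or replicate 1 of the untreated cells.

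With rapamycin, at the same dose and time, no respiratory transcript was called higher and a few were lower. Against untreated cells, 0 of the 52 genes were higher by limma, edgeR or DESeq2. By limma 6 (11.5%) were lower, near the 8% of all tested genes. The lower count was 6 by edgeR and 4 by DESeq2. At an unadjusted p under 0.05 by limma, 15 of the 52 differed, against 1681 of all 4847 tested genes. Among all tested genes, 10.2% were called higher and 8% lower. The median log2 fold change was -0.04 over the 52 genes and 0.00 over all tested genes. In 17 of the 34 nuclear genes other than assembly factors, both rapamycin libraries lay below both untreated libraries. The share of all tested genes that showed this order was 32.8%.

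The genes lower with rapamycin were cox5, cox9 and cox6 of the oxidase, cyt1 and qcr2 of the bc1 complex, and atp20 of the ATP synthase. The cox5 level was 314.9 and 305.5 FPKM with rapamycin and 356.0 and 354.7 FPKM in untreated cells, a log2 fold change of -0.20 ± 0.04 (adjusted p from limma 0.0159). The cyt1 level was 396.0 and 390.3 FPKM with rapamycin and 443.0 and 446.2 FPKM in untreated cells, a log2 fold change of -0.18 ± 0.04 (adjusted p from limma 0.0148). The qcr2 level was 215.8 and 222.0 FPKM with rapamycin and 242.8 and 259.0 FPKM in untreated cells, a log2 fold change of -0.20 ± 0.04 (adjusted p from limma 0.0164). No library of these 3 genes overlapped between the conditions. The log2 fold changes of atp20, cox9 and cox6 were -0.19, -0.16 and -0.14, with adjusted p from limma between 0.0294 and 0.0388. No call of these 6 genes held in all 6 fits that left out 1 library: 0 genes were lower without replicate 2 of rapamycin, and 1 without either replicate of the untreated cells. Cyclic loess normalization gave 3 lower and 2 higher genes. For complex II the log2 fold changes of rapamycin over untreated cells were between 0.03 and 0.10, for cyc1 -0.09 with a 95% interval of -0.17 to 0.00, for nde2 -0.01, and for cyt2, the heme lyase of cytochrome c1 and the assembly factor with the highest level, -0.06.

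**Figure D3:**
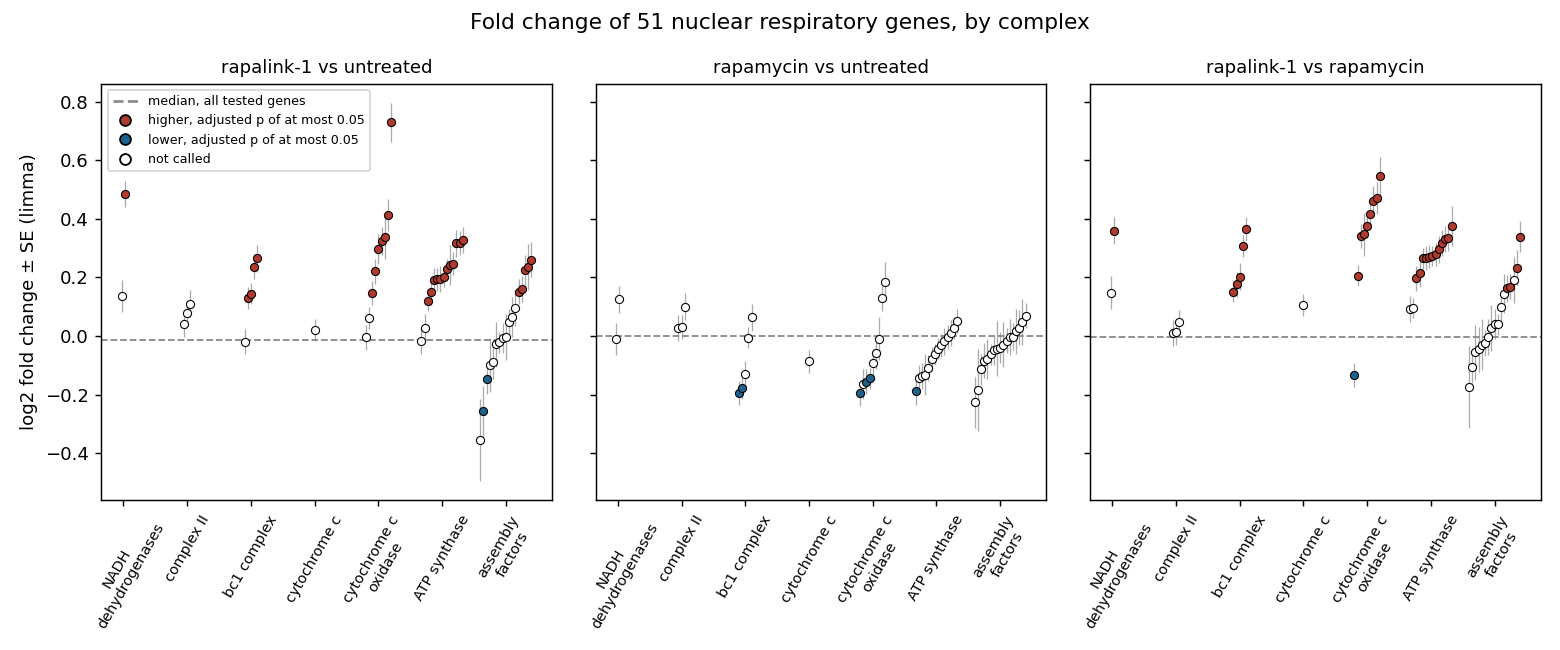
Log2 fold change with its standard error (y axis) of the 51 tested nuclear genes in the 3 comparisons, grouped by complex; filled points passed an adjusted p of 0.05 and the dashed line is the median of all tested genes. In the outer panels the oxidase and ATP synthase points lie mostly above the line, with medians of 0.30 and 0.20 for rapalink-1 over untreated cells, while complex II lies close to it.

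Compared directly with rapamycin, rapalink-1 gave higher transcripts for most of the chain. This comparison shares its rapalink-1 and rapamycin libraries with the others and is no separate sample of either drug. Of the 52 genes, 30 were higher with rapalink-1 than with rapamycin and 1 was lower. Among all tested genes, 19.6% were called higher and 17.6% lower. The median log2 difference was 0.19 over the 52 genes and -0.00 over all tested genes, and quantile normalization gave 0.12 for the 52 genes. All 5 tested bc1 genes, 8 of 9 oxidase genes and 12 of 15 ATP synthase genes were higher, and 21 of the 52 genes were higher by at least 1.2-fold. The share of all tested genes called higher by at least 1.2-fold was 12.1%.

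The largest log2 differences between the drugs were those of SPCC417.16 (0.55 ± 0.07), cox7 (0.47 ± 0.05) and cox4, which encodes oxidase subunit IV (0.46 ± 0.05). The cox4 level was 332.8 and 316.8 FPKM with rapalink-1, 247.2 and 224.7 FPKM with rapamycin, and 263.4 and 264.7 FPKM in untreated cells. Rapalink-1 was highest and rapamycin lowest in every library of this gene. In the bc1 complex the differences were led by qcr8 (0.37 ± 0.04) and cyt1 (0.31 ± 0.04). In the ATP synthase they were led by atp19, which encodes membrane subunit k (0.38 ± 0.07), by atp7 and by atp16, the F1 delta subunit (0.33 for both). The nde1 difference was 0.36 ± 0.05 and that of coa2 0.34 ± 0.05. All these genes passed with adjusted p from limma of at most 0.00327 with all 6 libraries. They also passed without any 1 library, where the highest adjusted p was 0.0224 (atp19). Calls that were less firm included those of qcr6 (0.20 ± 0.05), SPBC8D2.12c (0.23 ± 0.06) and cbp3, an assembly factor of the bc1 complex (0.17 ± 0.04). Leaving out replicate 1 of rapalink-1 raised their adjusted p to 0.0514, 0.069 and 0.0713, and leaving out replicate 1 of rapamycin raised them to 0.0508, 0.083 and 0.0662. Without replicate 2 of rapamycin, SPBC8D2.12c and cbp3 were lost, as was qcr7 of the bc1 complex, whose log2 difference was then 0.14. The qcr2 call was lost without replicate 1 of rapamycin, at a log2 difference of 0.16.

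The drugs did not differ detectably for complex II. The log2 difference of rapalink-1 over rapamycin was 0.01 for sdh1, with a 95% interval of -0.09 to 0.12, and 0.01 for sdh2, with an interval of -0.09 to 0.11. For sdh3 it was 0.05, with an interval of -0.04 to 0.14. For cyc1 it was 0.11, with an interval of 0.02 to 0.19 (adjusted p from limma 0.0591). The gene called lower was new16, with 201.0 and 189.0 FPKM with rapalink-1, 211.0 and 216.6 FPKM with rapamycin, and 193.0 and 198.1 FPKM in untreated cells. The log2 difference was -0.13 ± 0.04 (adjusted p from limma 0.0374). This call was lost without replicate 2 of rapalink-1 (adjusted p 0.188), without replicate 1 or 2 of rapamycin (adjusted p 0.0802 and 0.164) and without replicate 2 of the untreated cells (adjusted p 0.0517), and edgeR and DESeq2 called 0 genes lower.

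The respiratory genes have short models, with a median length of 1051.5 bases over the 52 tested genes and 1752 bases over all tested genes, and high levels. Length moved a little with treatment over the other protein-coding genes: the median log2 fold change of rapalink-1 over untreated cells was 0.01 for models under 1000 bases and -0.05 for models of at least 2000 bases. Among nuclear respiratory genes under 1000 bases the median was 0.24 and 18 of 25 were higher. Of the 330 other protein-coding genes of that length with a mean of 50 to 1500 FPKM, a range that holds all 25, 35.5% were higher, with a median of 0.04. Of 17 nuclear respiratory genes of at least 1000 but under 2000 bases, 9 were higher and 1 lower, with a median of 0.13. Other protein-coding genes of that length were higher in 27.9% and lower in 23.5%. Of 9 nuclear respiratory genes of at least 2000 bases, only 2 were higher and 1 lower, with a median of 0.04. Other protein-coding genes of at least 2000 bases were higher in 18.8% and lower in 25.8%. Removing the trend with length from each library left 29 of the 52 genes higher under rapalink-1 than in untreated cells.

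Sequences before the RefSeq starts of the 61 nuclear genes were read from the RefSeq genome and annotation (assembly ASM294v3), in the 250 bases before each gene start of that annotation. These starts differ from those of the authors' models: all 61 genes share the last base of the model but only 2 the first, and in 47 the authors' model begins further upstream. CCAAT, searched on both strands as CCAAT and ATTGG, was present in 34 of the 61 windows (55.7%), against 35.3% of 5112 windows of protein-coding genes. All 5 tested bc1 genes, all 3 genes of complex II and cyc1 had at least 1 such match, as did 6 of 14 tested nuclear ATP synthase genes and 4 of 9 tested oxidase genes. Among the tested assembly and maturation factors, 11 of 17 (64.7%) had a match. Of the bc1 genes below the filter on level, qcr10 had 1 match, and rip1 and qcr9 had no match. The matches nearest to the gene start in the tested genes of the bc1 complex and complex II and in cyc1 are shown. They are given 5′ to 3′ on the strand of the gene, with the CCAAT or ATTGG letters in capitals.
cyt1: gattcctgtatgCCAATtatcgtcgggaa
qcr2: taacgcaactggCCAATtcaaactttgtc
qcr6: atcaaatgcggaCCAATatagcgaacggt
qcr7: accgaaggattcATTGGcatactataggg
qcr8: gtctgaattattATTGGtctagcagaccc
sdh1: cttaagagatgcCCAATtaccaaagcttc
sdh2: atttttctgccgCCAATaaaattgattct
sdh3: ggaaaatatcttCCAATaacatactgcgc
cyc1: agagctcatgaaCCAATgaaataagggcg

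The bc1 stretches lie at chrII:2073166-2073194 on the plus strand (cyt1), chrIII:96565-96593 on the plus strand (qcr2), chrII:4345572-4345600 on the minus strand (qcr6), chrIII:1888062-1888090 on the minus strand (qcr7) and chrI:4767013-4767041 on the plus strand (qcr8). Those of complex II lie at chrI:3798473-3798501 on the minus strand (sdh1), chrI:1895352-1895380 on the plus strand (sdh2) and chrIII:136658-136686 on the minus strand (sdh3), and that of cyc1 at chrIII:1714545-1714573 on the plus strand. The first base of the capitals was between 26 bases (sdh3) and 67 bases (sdh2) before the RefSeq start. The stretches of sdh1, sdh3, qcr6 and qcr7, 4 of the 9, lie inside the authors' gene models, which begin further upstream than those of RefSeq. In RefSeq, annotated exons on either strand cover all 250 bases of the windows of sdh1, sdh3, cyt1, qcr2, qcr7 and cyc1. Such exons cover 68 bases of the qcr6 window, 30 of the qcr8 window and 0 of the sdh2 window.

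The calls were also counted by presence of the letters, and the difference was not tested. Of the 34 tested nuclear genes other than assembly factors, 14 of 20 with a match and 10 of 14 without one rose under rapalink-1 relative to untreated cells, with median log2 fold changes of 0.21 and 0.19. For rapamycin over untreated cells 4 of 20 with a match and 2 of 14 without one were lower, with medians of -0.03 and -0.08. GATAA, searched on both strands, was present in 50.8% of the 61 windows and 54.2% of all windows. CAGTCACA, searched on both strands, was present in 0 of the 61 windows and in 2.62% of all windows.

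Of the 67 genes, 15 were below the filter, and they fell into sets of different kinds. The 6 genes of mitochondrial DNA, atp6, atp8, atp9, cox1, cox2 and cox3, held between 33 and 52 reads per library together, from RNA selected by polyA capture. Of these only atp9 passed the filter, with 1.07 and 1.90 FPKM with rapalink-1, 1.34 and 1.31 FPKM with rapamycin, and 1.60 and 0.51 FPKM in untreated cells. The conditions overlapped, and no difference was detectable at this depth. The remaining 10 were nuclear genes: atp18 of the ATP synthase, rip1, qcr9 and qcr10 of the bc1 complex, cox8 of the oxidase, and the assembly factors fmc1, emi5, coa3, cox14 and pet117. In the authors' gene table between 67.2% and 100% of each of these 10 models is covered by other gene models, and 6 of the 10 had no read in any library. Over the 51 tested nuclear genes the covered share had a median of 4.47% and reached 71.6%, and 3 of the 51 were covered by 60% or more.

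**Figure D4:**
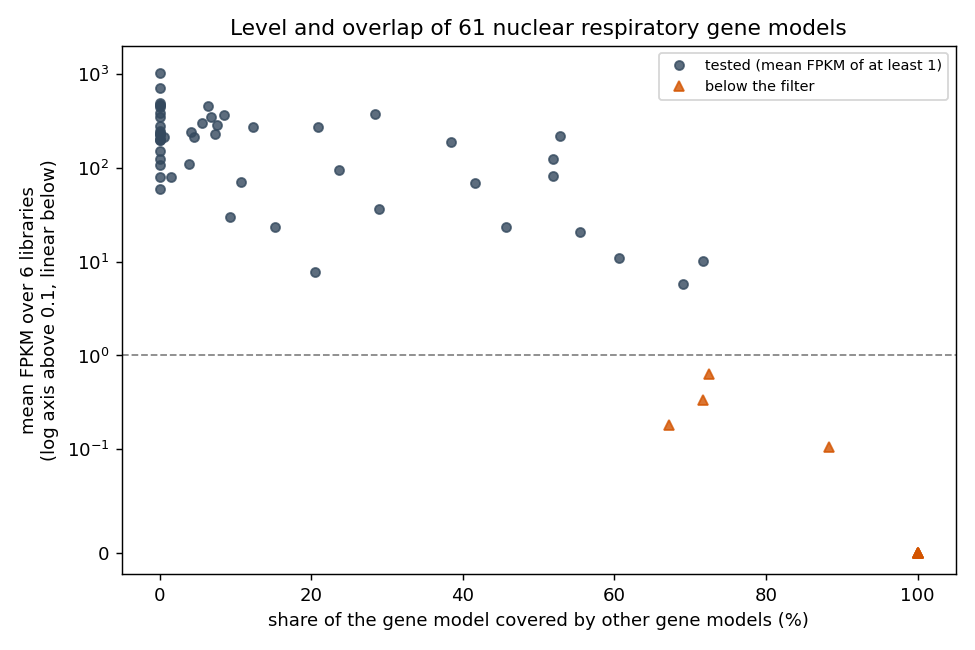
Mean FPKM over 6 libraries (y axis, logarithmic above 0.1 and linear below) against the share of each gene model covered by other models (x axis, percent), for the 61 nuclear genes; the dashed line is the filter at 1 FPKM. The 10 genes below the line (triangles) lie between 67.2% and 100%, and 6 of them are at 0.

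One of the genes listed at 0 is rip1, which encodes the Rieske iron-sulfur protein, a catalytic subunit of the bc1 complex. Its model (chromosome II, positions 2288882 to 2290179, minus strand) is covered whole by the model of ppa2 on the opposite strand. qcr9, covered by mcm3 over 72.5% of its model, had a mean of 0.64 FPKM, while the tested bc1 genes had between 246.4 and 492.8 FPKM with rapalink-1. The strand setting of the read counting is not given in the sources used here, and how reads in shared stretches were assigned was not tested, so a value of 0 for these genes is no measure of their transcripts. Partial overlap also concerns tested genes: shy1, an oxidase assembly protein, atp12, a chaperone of the F1 ATPase, and rcf1 are covered over 71.6%, 69.0% and 60.6%, and their levels were between 4.91 and 13.2 FPKM. Genes named above for their changes are also partly covered, mostly by models on the opposite strand, among them atp7 (51.9%), rcf2 (51.8%), cox12 (28.4%) and atp19 (23.7%).

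Genes that serve the chain without belonging to it were counted beside it, against the 24.3% higher and 23.1% lower of all tested genes with rapalink-1 and the 10.2% higher and 8% lower with rapamycin. Of 9 tested genes of coenzyme Q synthesis, 4 rose and 1 fell under rapalink-1 relative to untreated cells, led by coq4 (log2 fold change 0.42). Both tested nucleotide and phosphate carriers were higher, among them anc1, the ADP/ATP carrier (0.17). Of 7 tested genes of heme synthesis 0 were called by limma, edgeR or DESeq2, and 2 had an unadjusted p under 0.05 by limma. That unadjusted p was reached by 2621 of all 4847 tested genes. Of 13 tested genes of mitochondrial gene expression 9 were lower and 1 higher, with rpo41, the mitochondrial RNA polymerase, at a log2 fold change of -0.56 and the pentatricopeptide repeat gene ppr5 at -0.53. Of 6 tested genes whose descriptions name electron donors to the quinone pool, a list that also holds cytosolic glycerol-3-phosphate dehydrogenases, 3 were lower, among them ura3, dihydroorotate dehydrogenase (-0.54), and cir2 (-0.23). Of the 4 genes of the CCAAT-binding complex php3 was higher (0.27) and php4 lower (-0.26). php5 (-0.12) was called lower by limma (adjusted p 0.049) but not by edgeR (adjusted p 0.0555) or DESeq2 (adjusted p 0.122).

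With rapamycin, limma made 5 calls among the same lists relative to untreated cells. The genes php3, cir2 and ppr8, a pentatricopeptide repeat gene, were higher (log2 fold changes 0.21, 0.20 and 0.27), and hem12, a gene of heme synthesis, and ppr5 were lower (-0.25 and -0.27). Among the genes of coenzyme Q synthesis limma, edgeR and DESeq2 made 0 calls, and 2 genes had an unadjusted p under 0.05 by limma. That unadjusted p was reached by 1681 of all 4847 tested genes. The carriers also had 0 calls by these tools, and 0 had an unadjusted p under 0.05 by limma.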

How the data were processed

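PolyA RNA of 6 libraries was sequenced as paired-end reads. The submitters' processing notes name HISAT2 2.0.5, StringTie 1.3.3b, featureCounts 1.5.0-p3 and DESeq2, and the genome build and strand setting are not given in the sources used here. The authors deposited FPKM for every gene and library, normalised to gene model length and an effective library size. The authors also deposited raw read counts in 3 comparison tables, limited to genes whose unadjusted p was below 0.05. These tables also hold the authors' fold changes and p-values, 12 columns of normalised counts and 6 columns of condition means, which were not used.

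Multiplying FPKM by model length and by a constant of the library returned whole numbers of reads for 100% of values (largest gap 5.2e-10), equal to every deposited count compared. Reads of replicates differed by more than sampling noise (chi-square per degree of freedom 8.03 for rapalink-1, 9.93 for rapamycin, 5.44 for untreated). Median-of-ratios scale factors were equal for all libraries, and log2 was taken after a pseudocount of 1. limma 3.58.1 with an intensity trend (R 4.3.3) was fitted to all 6 libraries, without a block for the replicate number, for genes with a mean of at least 1 FPKM. The smallest p of an exact permutation test of 2 against 2 libraries is 0.333, so calls rest on a spread estimated across genes. On simulated reads for rapalink-1 against untreated cells (4847 genes), limma called 17 of 50 genes changed by 1.2-fold, 44 of 50 changed by 1.5-fold, 48 of 50 raised by 2-fold and 8 of 4647 unchanged genes. A change of the usual size here can therefore be missed.

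Roles were set from words in the descriptions. SPAC17H9.12c was moved by hand to the assembly factors. In each role and comparison up to 3 rising and 3 falling genes past the threshold were named by size of change, or the gene with the highest level where none passed, and other genes named were chosen after their values were seen. The genes and lists were chosen with earlier results of these data known. Alternatives were a pseudocount of 0.1, no filter, no further scaling, quantile normalization, only 2 conditions in the fit, a replicate block, count models on those reads (DESeq2 1.42.0, edgeR 4.0.16), and fits without 1 library. Cyclic loess and removal of a trend with gene length were added after the data had been seen. Overlaps used the positions in the authors' gene table. BLAST 2.17.0 found a second copy (95% identity or more, 50% of the gene or longer) for 0 of the 61 nuclear genes in ASM294v3. All 61 share the last base of the gene model with the authors' models and 2 share the first base too.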

Additional observations from a re-analysis of the deposited data

How the results depend on the processing

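No called value changed direction under the 16 alternatives, and 40 recomputed values of genes that were not called changed sign, among them cyc1 and sdh1 with quantile normalization. Over 90 named values, 1302 of the recomputed values kept their side of the threshold, 108 lost a call and 30 gained one. For rapalink-1 against untreated cells, the genes called higher numbered between 21 and 33 of the tested respiratory genes. The genes called lower, 2 in the fit as reported, numbered 0 without the filter and with DESeq2, 1 with the length trend removed, 3 with quantile normalization and with cyclic loess, and 0 to 2 without single libraries. The median log2 fold change was 0.12 without the filter, which adds genes listed at 0, 0.070 with quantile normalization and 0.17 with cyclic loess, and 0.12 to 0.17 without single libraries. For rapamycin against untreated cells, the genes called lower, 6 as reported, numbered 1 without the filter, 3 with cyclic loess and 0 to 8 without single libraries. Those called higher numbered 2 with quantile normalization, 2 with cyclic loess, 1 with only the 2 conditions in the fit and 0 to 1 without single libraries. The median was -0.017 without the filter, -0.017 with cyclic loess and -0.05 to -0.03 without single libraries. For rapalink-1 against rapamycin, the genes called higher numbered between 24 and 32. Those called lower, 1 as reported, numbered 0 without the filter, with only the 2 conditions, with edgeR and with DESeq2, and 0 to 1 without single libraries. The median was 0.15 without the filter, 0.12 with quantile normalization and 0.17 to 0.22 without single libraries. Where no construction of the alternative shows it, the cause was not tested. Deviations of same-numbered libraries correlated with 0.04, 0.00 and -0.01 across 4847 genes, and no label ties a number to a mother culture. These values show no large effect shared by replicate number. They cannot show whether libraries shared a mother culture. With a replicate block, 29 genes were higher and 1 lower for rapalink-1 against untreated cells, 1 higher and 8 lower for rapamycin against untreated cells, and 31 higher and 0 lower for rapalink-1 against rapamycin. Genes of mitochondrial DNA, with few reads, are the ones that depth limits.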
